A study of Mus musculus with 17 samples.

Results

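The genes described here are 43 genes of DNA replication and mitosis, chosen by name and found by symbol among the 55401 Ensembl identifiers of the count table. They were measured in RNA of mouse bone marrow-derived macrophages, which are macrophages grown from marrow precursors in culture, in 17 libraries of 6 groups. Cells of strain C57BL/6J formed 4 groups. These were a control group (3 libraries), whose medium the labels do not describe, and cells held for 6 h in medium conditioned by B16F10, a mouse melanoma line, with no added salt (3 libraries), with KCl (3 libraries) or with NaCl (2 libraries), each salt at 40 mM at the end. The other 2 groups were in conditioned medium with KCl labelled isotonic, for which a separate concentration and time are not given. Both carried floxed Kcnj2, a potassium channel gene, in 3 libraries without Cre (floxed) and 3 libraries with Lyz2-Cre (knockout), a driver active in myeloid cells. Sexes, ages and the origin of the replicates are not stated, so p-values cover sample-to-sample spread alone, and that spread can be technical.

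A cell that is to divide first licenses its replication origins: Cdc6 and Cdt1 load the Mcm2 to Mcm7 helicase onto DNA, and Cdc45 and Mcm10 then help to start the forks. E2F factors switch on these genes and those for nucleotide supply as the cell leaves G1, and cyclin-dependent kinases with cyclins E, A and B drive S phase and mitosis in turn. Later genes, among them Foxm1, Plk1 and the Aurora kinases, serve mitotic entry and the spindle, and Cdc20 and Ube2c act in exit from mitosis. Macrophages grown from marrow keep dividing in culture while they receive growth factor.

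Promoter letters are shown first, because E2F factors and the complexes at cell cycle homology regions are known for acting on these genes from near the start site. RefSeq windows on GRCm38.p6, from 250 bases before to 50 after the start, were found for 36 of the 43 genes. Any of the E2F letters TTTCCCGC, TTTCGCGC, TTTGCCGC or TTTGGCGC, searched on both strands, stood in the windows of 10 of the 36 genes (27.8%), against 2.61% of 27025 genes. The cell cycle homology letters TTTGAA stood in 15 (41.7%), against 20.2%, and CCAAT in 29 (80.6%), against 41.1%. The E2F letters were in 6 of the 7 licensing genes with a window and in 0 of the 8 of the spindle and chromosomes. TTTGAA was in 1 of those 7 and in 5 of those 8, and also in 4 of 5 genes of mitotic entry and both genes of mitotic exit. These are matches of letters and say nothing of binding.

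For each kind of letters, the 250 bases before the start are given for the gene with the highest counts that held them, all 3 on the minus strand, 5′ to 3′ as transcribed, with the match in capitals. Cdk2 (chr10:128705052-128705301) held E2F letters, read here on the other strand. Mki67 (chr7:135716380-135716629) held TTTGAA at 2 places, and Pcna (chr2:132253181-132253430) held CCAAT, read on the other strand.
Cdk2: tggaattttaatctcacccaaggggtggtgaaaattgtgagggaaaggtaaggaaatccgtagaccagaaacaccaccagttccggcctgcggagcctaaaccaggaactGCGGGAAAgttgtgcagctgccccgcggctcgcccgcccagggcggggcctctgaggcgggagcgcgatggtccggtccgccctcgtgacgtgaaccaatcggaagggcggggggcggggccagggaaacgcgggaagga
Mki67: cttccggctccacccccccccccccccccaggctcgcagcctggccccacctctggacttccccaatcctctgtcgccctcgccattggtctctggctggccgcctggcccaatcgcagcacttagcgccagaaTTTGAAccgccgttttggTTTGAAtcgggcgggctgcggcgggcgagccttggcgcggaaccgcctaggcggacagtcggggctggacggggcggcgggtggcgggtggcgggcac
Pcna: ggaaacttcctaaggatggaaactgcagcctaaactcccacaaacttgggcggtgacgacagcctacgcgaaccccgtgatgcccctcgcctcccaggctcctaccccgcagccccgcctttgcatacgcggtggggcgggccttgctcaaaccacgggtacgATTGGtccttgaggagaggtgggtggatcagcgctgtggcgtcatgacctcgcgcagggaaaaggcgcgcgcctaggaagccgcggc

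In 4 licensing genes the E2F letters lay before the start. Stretches of 60 bases around a match, again 5′ to 3′ as transcribed and with the match in capitals, are shown for 3 of them, since the licensing genes had the lowest median fold change of the 7 roles when conditioned medium was compared with control. They were chosen after the matches were seen. In the Mcm6 stretch another match, GCGCGAAA, overlaps the one in capitals, and its last bases stand in lower case. A further Mcm6 match lies nearer the start and is not shown. The stretches lie at chr11:98907987-98908046 on the plus strand (Cdc6), and at chr1:128359782-128359841 (Mcm6) and chr5:138172015-138172074 (Mcm7) on the minus strand.
Cdc6: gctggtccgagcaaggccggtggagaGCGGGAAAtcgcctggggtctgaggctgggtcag
Mcm6: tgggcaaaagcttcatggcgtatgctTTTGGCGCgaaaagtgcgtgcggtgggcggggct
Mcm7: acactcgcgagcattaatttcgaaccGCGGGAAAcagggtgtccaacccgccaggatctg

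Total counts ran from 13503869 to 19391623 per library, and all 43 genes passed the filter on low counts in every fit, each with at least 10 counts in every library. Macrophage markers were detected throughout, 8 of 8 in every group, with a summed level of 12390 to 29230 CPM (a count relative to the total of its library). Most of the sum was Lyz2, and single markers moved in both directions. From control to conditioned medium, Mertk went from 78.9 to 34.7 CPM and Fcgr1 from 91.1 to 31.7 CPM. Adgre1 went from 955 to 2353 CPM and Cd14 from 476 to 1711 CPM. The lowest sums were in the knockout, where Lyz2, the gene that carries Cre, averaged 7647 CPM. Kcnj2 had 1853 to 2910 counts in the floxed libraries and 287 to 458 in the knockout libraries. Of 6 melanoma markers, Tyr and Dct had 0 counts in all 17 libraries, Tyrp1 was at 0 in 10, Sox10 in 4 and Mlana in 1, and Pmel, whose exons overlap those of Cdk2 on the opposite strand, was detected in all at 0.058 to 0.986 CPM. Counts of replicates differed more among KCl and floxed libraries (chi-square per degree of freedom 27.4 to 146) than among control, conditioned medium and NaCl libraries (2.08 to 5.75). Knockout libraries had values of 5.91 to 36.9.

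Levels are given as CPM scaled by TMM factors, in the order of the replicates. Summed over the 43 genes, the level was 1135 to 1161 CPM in control libraries, while conditioned medium had 703 to 724. With salt it was 905 to 1030 (KCl) and 803 to 829 (NaCl). Floxed libraries had 738 to 846 and knockout libraries 713 to 809. Control libraries were thus the highest for the sum. Per kilobase of exon, Pcna, the sliding clamp of DNA polymerases, had the highest mean of the set in control cells (90.0 CPM per kb), followed by Mcm6 (17.5), and Cenpf, a kinetochore protein, had the lowest (0.446).

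**Figure D1:**
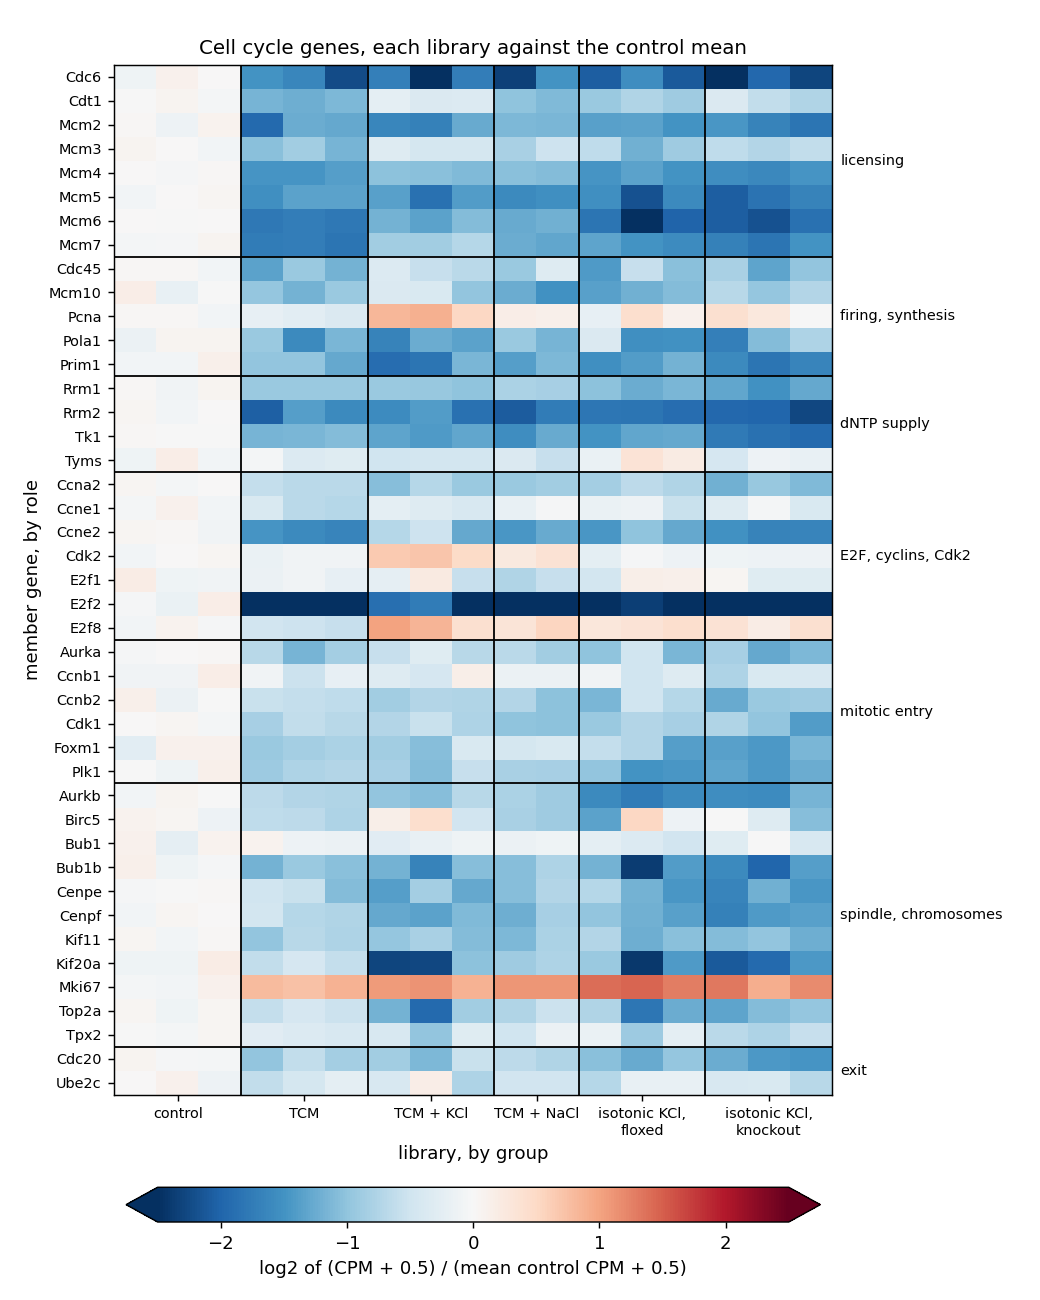
Level of each of the 43 genes (vertical, by role) in each of the 17 libraries (horizontal, by group), as log2 of CPM plus 0.5 relative to the control mean, with colours limited at 2.5 in either direction. Most genes are blue, below the control, in every group outside control, while Mki67 is red in all of them.

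Conditioned medium alone was compared with control to ask how these genes differed between the groups. The labels give neither the medium nor a time for control, so these cannot be told apart from the part of the melanoma line. Of the 43 genes, 34 fell, 1 rose and 8 did not pass the threshold (edgeR quasi-likelihood test, Benjamini-Hochberg adjusted p under 0.05). Among all 14519 genes tested, 26.4% fell and 27.2% rose (53.5% in all). The median log2 fold change of the 43 was −0.85, against −0.04 over all genes tested, and 42 of the 43 values were negative. In 40 of the 43 the libraries of both groups did not overlap (39 lower and 1 higher), against 34.2% lower and 33.8% higher among all genes tested (68.1% in all). In bulk RNA, fewer dividing cells and less of each RNA per cell cannot be told apart.

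All 8 licensing genes fell, with a median log2 fold change of −1.50. Mcm6, a subunit of the helicase, had 82.1, 80.9 and 82.3 CPM in control and 23.2, 24.2 and 23.3 in conditioned medium. Mcm7, another subunit, had 35.9, 36.2 and 38.7 CPM in control and 10.7, 10.8 and 10.1 in conditioned medium. Both genes were lower in all 3 conditioned medium libraries by a margin far above the spread of replicates, with log2 fold changes of −1.80 (SE 0.08, adjusted p = 5.8e-10 in edgeR) and −1.82 (SE 0.09, adjusted p = 1.4e-09). Cdc6, the loading factor, went from 6.75, 7.88 and 7.35 CPM to 2.27, 2.03 and 1.16, a log2 fold change of −2.02 (SE 0.29). The other 5 ranged from −1.52 (Mcm2) to −1.04 (Mcm3), with Cdt1 at −1.20. Summed over the 8 genes, control libraries had 301 to 305 CPM and conditioned medium libraries 105 to 113 CPM.

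The 5 genes of origin firing and synthesis also fell, with a median of −1.18. Pola1 (−1.33) and Prim1 (−1.18), parts of the primase complex, and Cdc45 (−1.26) and Mcm10 (−1.11) fell by more than Pcna. Pcna had 222, 220 and 206 CPM in control and 187, 179 and 168 in conditioned medium, which do not overlap, at a log2 fold change of −0.29 (SE 0.09, edgeR adjusted p = 0.018). Its call was lost without control replicate 1 or 2 or conditioned medium replicate 3 (adjusted p from 0.052 to 0.075).

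Of the genes of deoxynucleotide supply, Rrm2 (−1.69) and Rrm1 (−0.94), subunits of ribonucleotide reductase, and Tk1, thymidine kinase (−1.17), fell. Rrm1 had 62.3, 57.6 and 64.3 CPM in control and 32.2, 32.0 and 32.1 in conditioned medium, so no library overlapped. Tyms, thymidylate synthase, did not pass (−0.24, SE 0.13).

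Among E2F factors, cyclins and Cdk2, 5 of 7 fell. E2f2, an activating E2F factor, had the lowest value of all 43 genes. Its level was 11.5, 10.3 and 13.2 CPM in control and 1.20, 0.861 and 1.10 CPM in conditioned medium, a log2 fold change of −3.47 (SE 0.23, edgeR adjusted p = 2.6e-08). Ccne2, a cyclin E, fell by 1.66 on the log2 scale, and Ccne1 (−0.64), Ccna2 (−0.67) and E2f8 (−0.59), a repressing E2F factor, fell less far from 0. E2f1, an activating factor, stood at −0.15 (SE 0.16) and did not pass. Cdk2, the kinase of S phase, had 34.6, 36.8 and 37.8 CPM in control and 32.5, 34.3 and 34.4 in conditioned medium (−0.12, SE 0.09) and did not pass either.

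Of the 19 genes of mitosis, 13 fell and 1 rose. In mitotic entry 5 of 6 fell, with a median of −0.79, and Ccnb1, a cyclin B, did not pass (−0.29, SE 0.16). Cdk1, the mitotic kinase, had 30.4, 31.3 and 29.3 CPM in control and 16.8, 19.7 and 18.6 in conditioned medium, with no overlap (−0.73, SE 0.09). Of the 11 genes of spindle and chromosomes, 7 fell, from Bub1b (−1.11), a checkpoint kinase, to Top2a (−0.53), the topoisomerase that separates chromosomes. The call for Top2a was lost without control replicate 1 or 3 or conditioned medium replicate 1 or 3 (edgeR adjusted p from 0.075 to 0.091). Bub1, Kif20a and Tpx2 did not pass, at −0.07 to −0.58. In exit from mitosis Cdc20 fell (−0.86), and Ube2c had 18.4, 19.7 and 16.7 CPM in control and 11.8, 13.4 and 15.4 in conditioned medium and did not pass (−0.44, SE 0.18, adjusted p = 0.060).

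Mki67, the antigen of the Ki-67 proliferation stain, was the 1 gene that rose. It had 37.3, 37.0 and 42.1 CPM in control and 67.7, 65.0 and 71.4 CPM in conditioned medium. All 3 conditioned medium libraries lay above all control libraries, with a log2 fold change of 0.80 (SE 0.09, edgeR adjusted p = 3.2e-06). Without Mki67, the mitotic genes summed to 292 to 302 CPM in the control group, against 190 to 197 in conditioned medium. Mki67 rose under every alternative setting tried, and 32 of the 34 genes that fell did so under all of them.

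**Figure D2:**
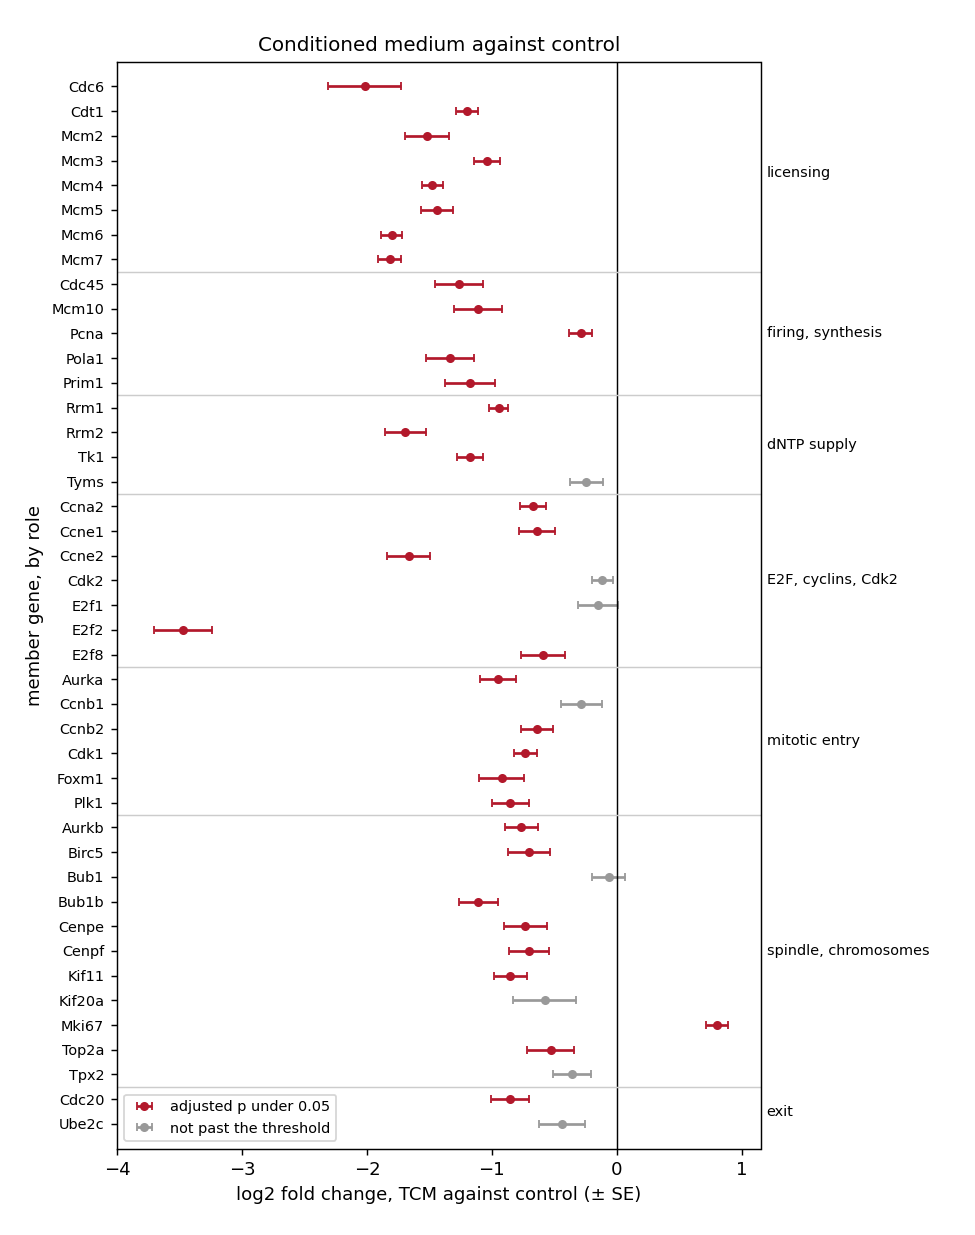
Log2 fold change (horizontal, ± SE) of each gene (vertical, by role) between conditioned medium (TCM) and control, 3 libraries each, in red where the adjusted p was under 0.05. Licensing genes lie between −2.02 and −1.04, E2f2 at −3.47, and Mki67 alone lies above 0.

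The wider set of 124 other cell cycle genes had 100 lower, 7 higher and a median of −0.80. Among those named by smallest p, Gmnn, the inhibitor of Cdt1, went from 37.1 ± 1.84 (SD, n = 3) to 10.8 ± 1.90 CPM (SD, n = 3). The replication genes Dna2 (−2.23) and Pole2 (−1.63) and the repair gene Ung (−2.94) fell too. The increases with the smallest p were in Tubb5, a tubulin (450 to 889 CPM, 0.97), Pola2, a polymerase subunit (1.07), Cdc25a, a phosphatase that activates Cdk2 (0.92), and Incenp, a partner of Aurkb (0.53). Of 33 regulators upstream of E2F factors, 11 rose and 11 fell. Mxi1, an antagonist of Myc (−2.31), and Ccnd1, cyclin D1 (32.4 to 8.07 CPM, −2.02), fell, and the kinase inhibitor Cdkn2b rose from 2.05 to 10.2 CPM (2.31).

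Marker sums of other cell types moved with this comparison. All 4 progenitor markers (Kit, Cd34, Flt3 and Gata2) were detected in both groups, and their sum was 13.7 to 14.7 CPM in control and 3.51 to 4.595 CPM in conditioned medium, mostly through Cd34 (11.8 to 2.20 CPM). Gata2 went from 1.85 to 0.783 CPM, while Kit went up (0.374 to 0.794 CPM) and Flt3 was near 0 in both (0.101 and 0.120 CPM). Against control, the sums of 5 fibroblast markers (479 to 528 CPM, against 551 to 681 CPM), 4 mast cell and basophil markers (4.295 to 5.002, against 5.42 to 7.38 CPM, mostly Mcpt8) and 5 erythroid markers (0.291 to 1.48, against 1.97 to 2.33 CPM) were lower too. The fibroblast sum fell through Col1a1 (209 to 162 CPM) and Col1a2 (239 to 185 CPM), with Col3a1 at 78.4 and 77.4 CPM. Dcn (61.2 to 62.6 CPM) and Pdgfra (10.1 to 11.1 CPM) went slightly up. The granulocyte list (10 genes) went the other way, from 7.80 to 9.09 CPM in control to 18.7 to 22.4 CPM, mostly S100a8, with Mpo, Elane and Ly6g near 0. The part of these lists in the result was not tested. Control libraries had TMM factors of 1.24 to 1.25, and conditioned medium libraries 0.97 to 0.995. Scaling by total counts moved the median of all genes by −0.34 and gave 42 lower genes and 1 higher, Mki67, among the 43. Of all 14519 genes tested, it called 6620 lower and 2191 higher.

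KCl in conditioned medium was compared with conditioned medium alone. Of the 43 genes, 13 rose and 5 fell, and among all genes tested 26.6% rose and 27.4% fell by the same edgeR test (53.9% in all), so the share that rose (13 of 43) was near the background and the share that fell was below it. The median of the 43 was −0.02, against −0.01 over all genes tested. By role, 5 of 8 licensing genes, 2 of 5 genes of firing and synthesis and 4 of 7 genes of the E2F and cyclin group rose, while 0 of 6 genes of mitotic entry and 0 of 4 of deoxynucleotide supply passed in either direction. Of the 11 spindle and chromosome genes, 4 fell and 2 rose.

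Pcna had 187, 179 and 168 CPM in conditioned medium and 385, 398 and 309 CPM with KCl. All KCl libraries lay above all others of strain C57BL/6J, and the log2 fold change against conditioned medium was 1.02 (SE 0.09, edgeR adjusted p = 1.2e-06). Mcm7 went from 10.7, 10.8 and 10.1 CPM to 19.9, 20.1 and 22.3 CPM (0.97, SE 0.09), which is still below its control libraries. Cdt1 (0.86), Mcm3 (0.62), Mcm6 (0.58) and Mcm4 (0.38) rose as well, and Cdc45 (0.68) passed with all libraries but not without conditioned medium replicate 1 or KCl replicate 1 (adjusted p of 0.056 and 0.063). Mcm6, at 35.7, 32.1 and 38.2 CPM with KCl, stayed below every control library. Rrm1 had 32.0, 31.6 and 30.1 CPM and was at −0.05 (SE 0.08).

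E2f8 had the highest value of the set. It had 3.98, 3.87 and 3.66 CPM in conditioned medium and 12.02, 10.8 and 7.69 with KCl, with no overlap between them or with control (5.46, 6.15 and 5.63 CPM). The log2 fold change was 1.39 (SE 0.18, edgeR adjusted p = 2.2e-05). E2f2 went from 1.20, 0.861 and 1.10 CPM to 2.82, 3.12 and 1.62 CPM (1.22, SE 0.28), far below its control level. Cdk2 rose from 32.5, 34.3 and 34.4 CPM to 57.8, 59.4 and 51.2 CPM (0.72, SE 0.09), above every control library. Ccne2 (0.80) and Birc5, survivin, a partner of Aurkb (0.75), also rose.

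Among the mitotic genes, Kif20a, a kinesin of late mitosis, fell most. It had 6.51, 7.50 and 6.57 CPM in conditioned medium and 1.68, 1.69 and 4.75 CPM with KCl (−1.30, SE 0.30, edgeR adjusted p = 0.0026). KCl replicate 3 stood apart from the other two, and without it the value was −2.03. Exons of Kif20a share 1271 of 4338 bases with Cdc23 on the opposite strand, and the strand setting of the counts is not given, so reads of the pair cannot be told apart. Top2a had 31.7, 36.0 and 32.9 CPM in conditioned medium and 21.1, 12.2 and 26.1 with KCl (−0.75, SE 0.20), with no overlap. Cenpf went from 4.86, 3.996 and 3.90 CPM to 2.55, 2.41 and 2.94 CPM (−0.69, SE 0.19).

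The other calls were small and less stable. Cenpe, a kinetochore motor, was at −0.52 and Ccna2 at −0.27, and Mki67, at 82.1, 84.7 and 71.6 CPM with KCl, was at 0.21 (edgeR adjusted p = 0.04995). The call for Ccna2 was lost without any 1 of conditioned medium replicates 1, 2 and 3 or KCl replicates 1 and 3, that for Mki67 without any 1 of conditioned medium replicates 1, 2 and 3 or KCl replicates 1 and 2, and that for Cenpe without conditioned medium replicate 1 or 2 or KCl replicate 1 or 3 (adjusted p from 0.061 to 0.17 over the 3 genes). Cdk1, at 18.1, 20.6 and 17.6 CPM, was at 0.02 (SE 0.10), and Ube2c, at 13.8, 20.5 and 10.5 CPM, at 0.11 (SE 0.19). Summed without Mki67, mitotic genes had 178 to 185 CPM with KCl, below the 190 to 197 CPM of conditioned medium alone.

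Exon length moved with these calls. The 13 genes that rose had a median exon length of 3752 bases and the 5 that fell 8620 bases, and Spearman's rho between log2 fold change and length was −0.28 across the 43 genes and −0.16 across all genes tested, where genes share libraries and are not independent. The slope of counts on length was −0.13 to −0.04 in KCl libraries and 0.00 to 0.05 in conditioned medium libraries, which do not overlap, so a length term takes up part of any KCl effect and these cannot be told apart. With the length term, 7 genes were higher and 0 lower, with Kif20a at −0.29, Top2a at −0.10, Cenpf at −0.52, E2f2 at 1.01, Ccne2 at 0.16 and Birc5 at −0.07. That setting called 2115 higher and 2285 lower of the 14519 genes tested. Cdt1, Cdk2, Mcm6, Pcna, Mcm7, Mcm3 and E2f8 were higher under every alternative. Scaling by total counts, which moved the median of all genes by −0.21, gave 10 higher and 13 lower. Over all 14519 genes tested it gave 2612 higher and 5401 lower.

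**Figure D3:**
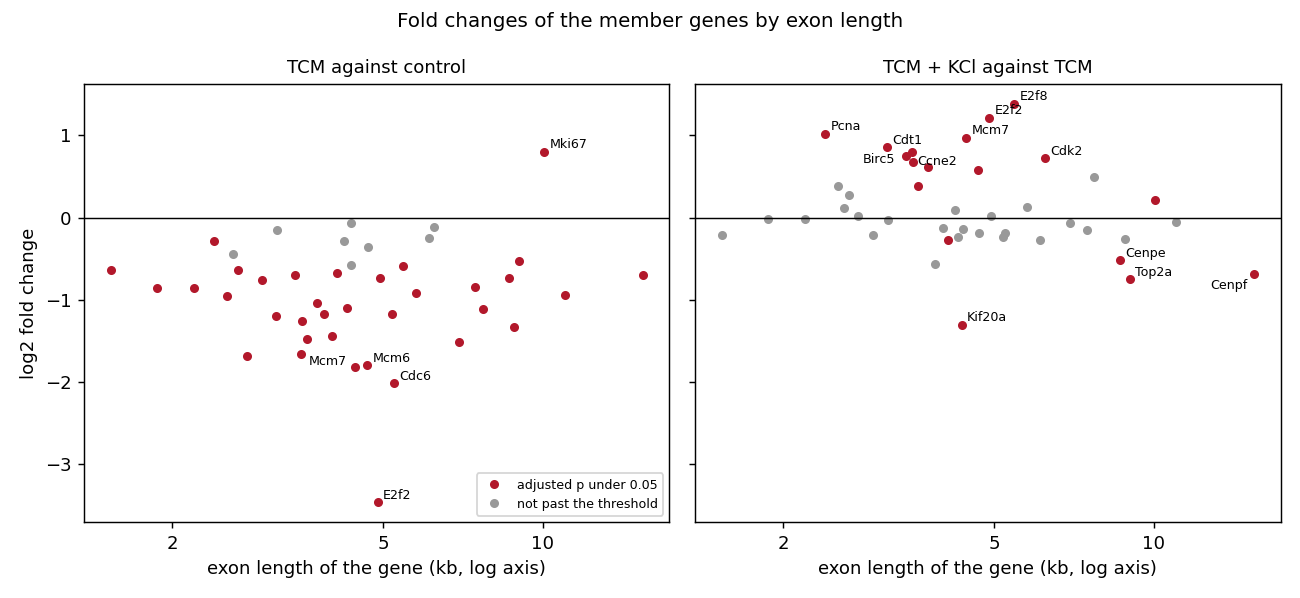
Log2 fold change (vertical) of the 43 genes against exon length in kb (horizontal, log axis), for conditioned medium (TCM) against control and for KCl against conditioned medium, in red where the adjusted p was under 0.05. In the KCl comparison Cenpe, Top2a and Cenpf, all over 8 kb, are lower, while most genes that rose are below 5 kb.

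Of the 124 other cell cycle genes, 32 rose and 21 fell with KCl (median 0.07). Nasp, a histone chaperone, rose from 41.3 ± 3.26 to 167 ± 8.29 CPM (SD, n = 3 each), a log2 fold change of 2.01. Ung (3.57), Cks2, a kinase subunit (1.46), and Dbf4, the activator of the Cdc7 kinase (1.12), rose. Smc4 of condensin (−0.71), Pold2, a polymerase subunit (−1.31), Mcm8 (−1.51) and Ckap2l, a spindle protein (−0.85), fell. Of the 33 regulators, 10 rose and 7 fell, with Btg1, an antiproliferative gene, at 1.53, Cdkn2b at 1.32 and Ccnd3, cyclin D3, at −1.29.

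Markers of other cell types moved as well with KCl. The sum of 5 dendritic cell markers was 1.58 to 4.37 CPM in conditioned medium and 16.3 to 23.1 with KCl, mostly through Xcr1 (1.38 to 17.3 CPM). Clec9a went up from 0.199 to 0.68 CPM. Zbtb46 went down from 1.7 to 1.28 CPM and Cd209a from 0.0626 to 0.0297 CPM, with Siglech at 0 in both groups. The 4 progenitor markers summed to 6.38 to 8.29 CPM with KCl. The 5 fibroblast markers went from 479 to 528 CPM to 283 to 450 CPM through the 3 collagen genes (Col1a1 from 162 to 84.7 CPM), while Dcn went from 62.6 to 78.6 CPM and Pdgfra from 11.1 to 12.9 CPM. The 4 mast cell and basophil markers summed to 6.94 to 7.52 CPM. Their part in the result was not tested.

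NaCl in conditioned medium shared the conditioned medium libraries with the KCl comparison, so both are given side by side and not counted against each other. With NaCl, 9 of the 43 genes rose and 0 fell, and among all genes tested 13.7% rose and 14.9% fell by the edgeR test (28.7% in all). At an unadjusted p under 0.05, edgeR gave 11 higher and 4 lower (Ccna2, E2f1, Tk1 and Cdk1), where 38.8% of all genes tested passed in either direction. DESeq2 gave 10 higher and 1 lower, E2f1, after adjustment, and 2162 higher and 2214 lower of the 14519 genes tested. The median of the 43 was 0.04, against −0.01 over all genes tested. The 9 were 4 licensing genes, Pcna, E2f8, Ccne1, Cdk2 and Mki67. E2f1, at 18.6 and 21.3 CPM with NaCl, against 28.6, 30.0 and 27.7 CPM in conditioned medium, lay near the threshold (−0.52, SE 0.19, edgeR adjusted p = 0.051).

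E2f8 had 7.28 and 8.52 CPM with NaCl, above conditioned medium and control, with a log2 fold change of 1.05 (SE 0.19, edgeR adjusted p = 0.0011), beside 1.39 with KCl. Mcm6 had 33.7 and 35.4 CPM (0.56, SE 0.09), beside 0.58 with KCl. Mcm7 had 15.4 and 14.8 CPM (0.52, SE 0.10), beside 0.97 with KCl. Mcm6 and Mcm7 were thus above all conditioned medium libraries and below all control libraries under both salts, while Mcm5 overlapped conditioned medium under both and did not pass. Pcna had 243 and 236 CPM (0.44, SE 0.10), and these 4 genes passed under every alternative.

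Ccne1 had 6.60 and 7.38 CPM with NaCl, against 5.685, 4.55 and 4.42 CPM in conditioned medium. Ccne1 (0.52), Cdk2 (0.43), Mcm4 (0.40), Mcm3 (0.36) and Mki67 (0.31) passed with all libraries but each lost its call when some 1 library was left out. Cdk2, at 43.01 and 47.2 CPM, did so without NaCl replicate 2 (edgeR adjusted p = 0.074), and Mcm4 without NaCl replicate 1 (0.058). Mcm3 did so without conditioned medium replicate 1 or 3 or NaCl replicate 2, Ccne1 without conditioned medium replicate 2 or 3 or either NaCl library, and Mki67 (83.8 CPM in both NaCl libraries) without conditioned medium replicate 1 or 2 or either NaCl library. Without NaCl replicate 2, the log2 fold change of Mcm3 was 0.20 and that of Cdk2 was 0.35. Rrm1 had 35.4 and 34.1 CPM (0.12, SE 0.09), Cdk1 14.9 and 14.8 CPM (−0.30, SE 0.11, adjusted p = 0.056) and Ube2c 12.9 CPM in both libraries (−0.06, SE 0.21), and none of these passed. Scaling by total counts, which moved the median of all genes by −0.07, gave 7 higher and 3 lower. Over all 14519 genes tested it gave 1487 higher and 2534 lower.

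Of the 124 other cell cycle genes, 15 rose and 9 fell with NaCl (median 0.06). Nasp (1.37), Ung (2.58), Dbf4 (0.74) and Atad2, a chromatin factor (0.74), rose, and Pold2 (−0.86), Mcm8 (−1.29), Pola2 (−0.44) and Smc4 (−0.36) fell. Of the regulators 8 rose and 4 fell, with E2f6, a repressing E2F factor, at 1.10, Cdkn2b at 1.00 and Ccnd1 at −1.12. With NaCl, progenitor markers summed to 4.69 to 5.61 CPM, the 5 dendritic markers to 6.29 to 7.60 CPM (Xcr1 at a mean of 4.61 CPM, with Cd209a and Siglech at 0) and the 4 mast cell and basophil markers to 5.92 to 6.18 CPM, all above conditioned medium alone. Their part was not tested.

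**Figure D4:**
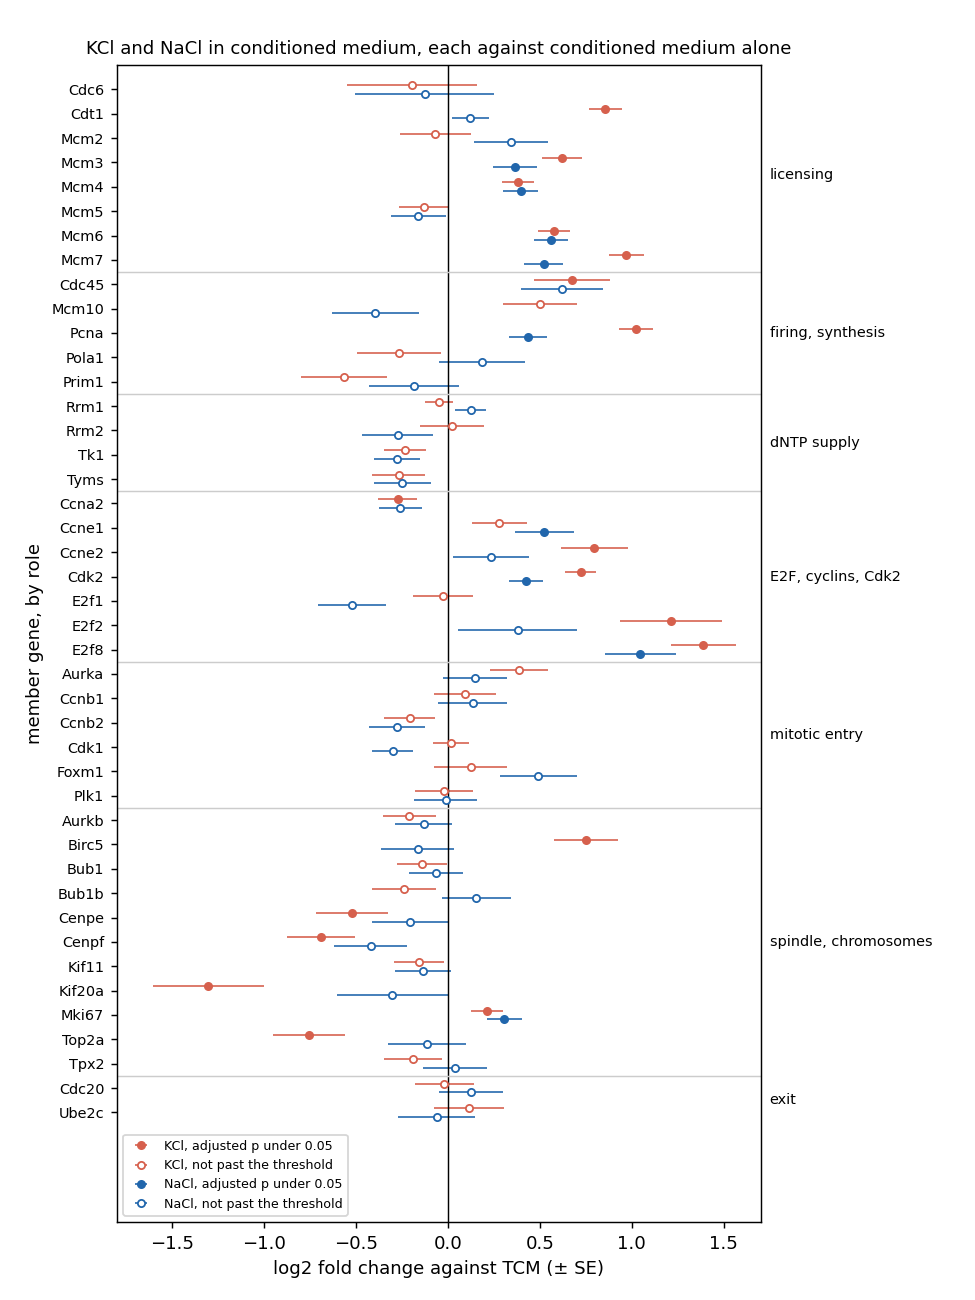
Log2 fold change (horizontal, ± SE) of each gene (vertical, by role) for KCl (red, 3 libraries) and NaCl (blue, 2 libraries), each against the same 3 libraries of conditioned medium alone, filled where the adjusted p was under 0.05. E2f8 lies at 1.39 and 1.05, and Pcna at 1.02 and 0.44.

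The difference between the salts was tested directly. With KCl, 9 of the 43 genes were higher than with NaCl and 2 were lower, and among all genes tested 15.4% were higher and 16.2% lower by the edgeR test (31.6% in all). The median of the 43 was −0.01, against −0.04 over all genes tested. Birc5 had 30.9, 37.6 and 20 CPM with KCl and 15.8 and 14.9 with NaCl (0.92, SE 0.20, adjusted p = 0.0055). Mcm10 had 6.45, 6.33 and 4 CPM against 3.25 and 2.63 (0.90, SE 0.23), and E2f2 2.82, 3.12 and 1.62 CPM against 1.26 and 1.49 (0.84, SE 0.29). The libraries of the salts did not overlap for these 3 genes, although KCl replicate 3 was near the NaCl libraries for E2f2.

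Cdt1 (0.74, edgeR adjusted p = 0.00071), Pcna (0.58), Ccne2 (0.56), Mcm7 (0.45), Cdk1 (0.32) and Cdk2 (0.30) were higher with KCl too. Kif20a had 1.68, 1.69 and 4.75 CPM with KCl and 5.29 and 5.78 with NaCl (−0.999, SE 0.33). Top2a had 21.1, 12.2 and 26.1 CPM with KCl and 28.6 and 33.2 CPM with NaCl (−0.64, SE 0.22). E2f8, Mcm6, Mcm4, Mcm3 and Mki67, which rose with each salt against conditioned medium, did not pass between the salts (0.34, 0.02, −0.02, 0.26 and −0.09, with SE of 0.18, 0.09, 0.09, 0.12 and 0.09). Of these Mcm3 was nearest the threshold, with no overlap of its libraries (edgeR adjusted p = 0.11, and 0.047 with the replicate number as a block).

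This comparison rested on its libraries and its fit. Only Cdt1 and Pcna kept their calls when any 1 library was left out. Birc5 and Mcm7 lost theirs without NaCl replicate 2, Mcm10 without KCl replicate 1 or NaCl replicate 2, and Top2a without KCl replicate 1 or either NaCl library. Ccne2, Cdk1, Cdk2, E2f2 and Kif20a each lost the call without KCl replicate 1, KCl replicate 2 or either NaCl library. Counts were 4 higher and 0 lower without KCl replicate 1, 5 and 1 without KCl replicate 2, and 11 and 6 without KCl replicate 3. Over all genes tested, the fit without KCl replicate 1 called 1551 higher and 1467 lower of 14428. Without KCl replicate 2 it was 1947 and 1960 of 14450, and without KCl replicate 3 it was 3335 and 3653 of 14467. With these 2 groups fitted alone, edgeR called 0 of the 43 in either direction, and 1 higher and 7 lower of the 13367 genes tested. With the length term it called 0 of the 43, and 60 higher and 81 lower of 14519. Scaling by total counts moved the median of all genes by −0.14 and gave 4 higher and 3 lower. Over all 14519 genes tested it gave 1522 higher and 3539 lower.

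Of the other cell cycle genes, 21 were higher and 11 lower with KCl than with NaCl. Nasp (0.64), Rpa2 (0.86), Cks2 (0.74) and the histone gene H2afz (1.08) were higher. The spindle gene Hmmr (−1.02), Pole (−1.46), Orc2 (−0.57) and Ckap2l (−0.70) were lower. Among the regulators 1 was higher, Btg1 (0.84), and 5 were lower, among them the pocket protein genes Rb1 (−0.50) and Rbl2 (−0.82).

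**Figure D5:**
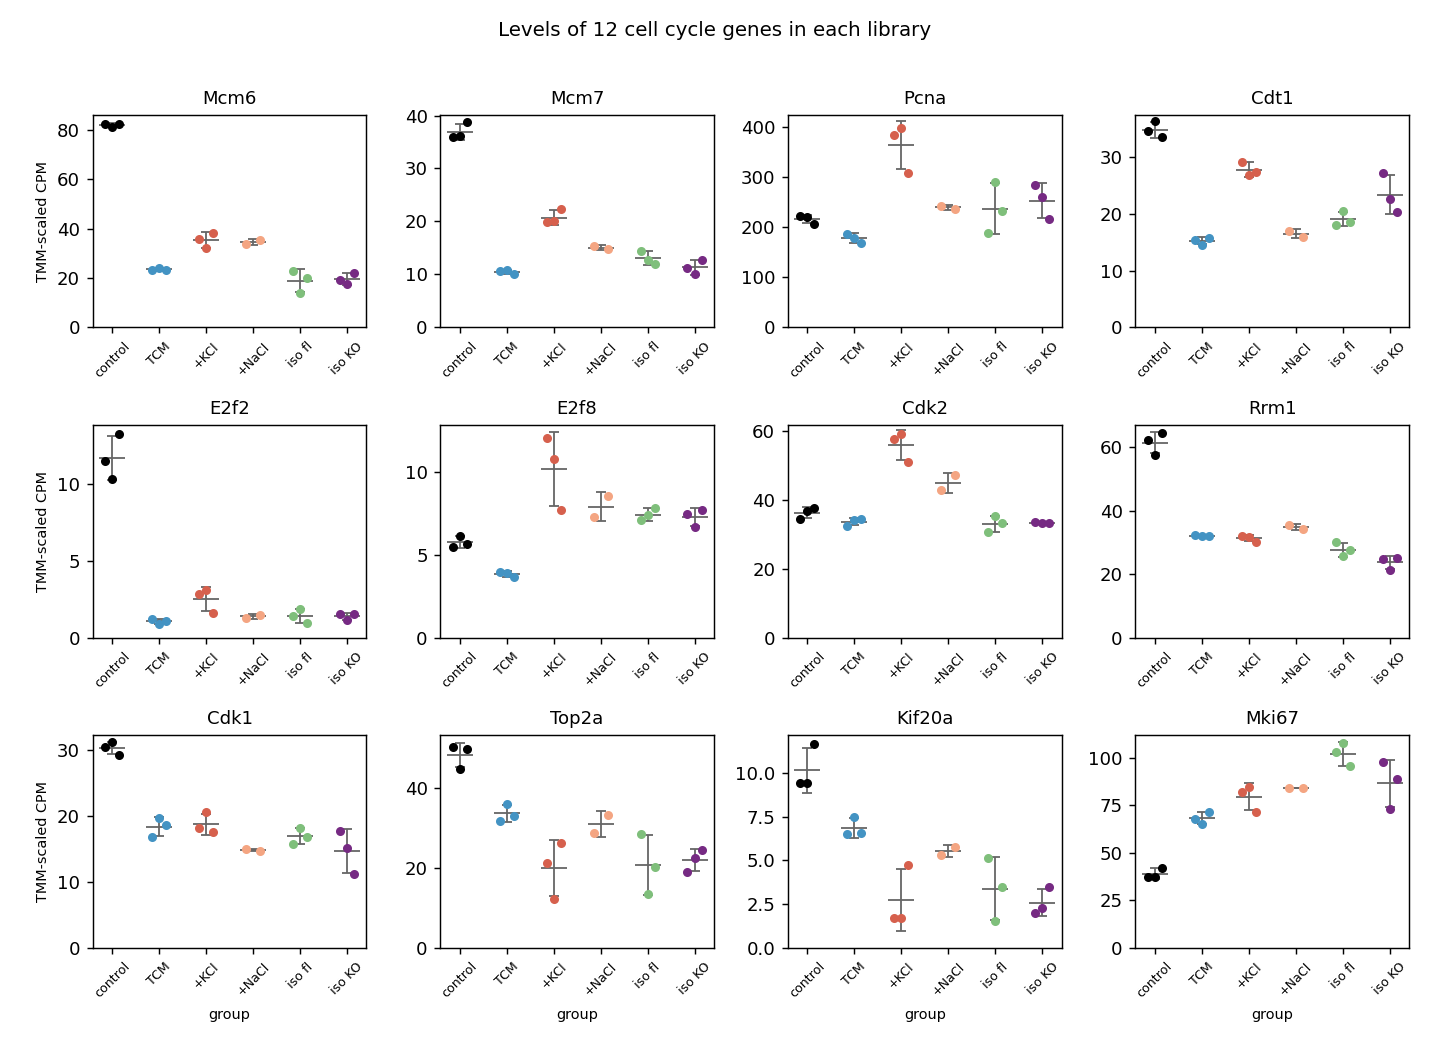
Level in TMM-scaled CPM (vertical, from 0) of 12 genes in each library (points), by group (horizontal: control, conditioned medium, with KCl, with NaCl, isotonic KCl floxed and isotonic KCl knockout), with the mean and SD. Mcm6 and Mcm7 are highest in control (81 to 82 and 36 to 39 CPM), Pcna and Cdk2 with KCl, and Mki67 in floxed cells (95 to 108 CPM).

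The knockout was compared with floxed cells in isotonic KCl to ask whether myeloid loss of Kcnj2 changed these genes. No gene of the 43 passed in either direction (edgeR, lowest adjusted p = 0.49 for Tk1), where 0.0156% of the 12782 genes tested were called (0.00782% in each direction). At an unadjusted p under 0.05 edgeR gave 1 higher, Mcm10 (0.48), and 1 lower, Tk1 (−0.54), where 5.6% of all genes tested passed at that level in either direction. DESeq2 called 0 of the 43 after adjustment and 1 lower before it, and after adjustment 42 higher and 135 lower of the 12782 genes tested. The median log2 fold change was −0.20, against 0.00 over all genes tested, with 33 of 43 values negative. The standard errors of the 43 genes (median 0.20, highest 0.48) leave changes of small size undetected here. Larger changes can be missed too. Only 2 of all 12782 genes tested were called, and log2 fold changes of the 33 regulators ran from −1.94 to 1.16 with 0 called.

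Tk1 had 8.08, 9.25 and 9.40 CPM in floxed and 6.52, 6.06 and 5.72 CPM in knockout cells. Mcm6 had 22.8, 13.8 and 20.2 CPM in floxed and 19.1, 17.6 and 22.2 CPM in knockout cells, and Pcna 188, 290 and 233 CPM against 284, 260 and 216. Tk1 libraries did not overlap between the genotypes, while those of Mcm6 and Pcna did. Rrm1 had 30.0, 25.6 and 27.5 CPM in floxed and 24.6, 21.3 and 25.2 CPM in knockout cells, without overlap. Cdk2 had 30.8, 35.5 and 33.2 CPM against 33.6, 33.2 and 33.3, with overlap. In all, 8 of the 43 genes had no overlap (Tk1, Rrm1, Rrm2, Ccna2, Ccne2 and Prim1 lower, Mcm10 and Aurkb higher), against 6.78% lower and 4.46% higher among all genes tested (11.2% in all).

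Cdk1 had 15.7, 18.2 and 16.8 CPM in floxed and 17.7, 15.1 and 11.2 CPM in knockout cells, and Ube2c 10.9, 16.1 and 15.97 CPM against 13.7, 13.8 and 11.1, both overlapping. Birc5 varied widely within both genotypes, at 10.8, 40.4 and 25.5 CPM in floxed and 27.8, 22.2 and 13.1 CPM in knockout cells. With the length term, Birc5 (−0.49) and Tk1 (−0.59) were called lower, under a setting that called 594 lower and 433 higher of the 12782 genes tested. Of the other cell cycle genes 0 of 123 tested passed in edgeR (log2 fold changes of −1.02 to 0.60), and of the regulators 0 of 33 (−1.94 to 1.16). The fibroblast markers summed to 233 to 477 CPM in floxed and 165 to 228 CPM in knockout cells. Progenitor markers were higher in the knockout (7.385 to 9.4 CPM, against 5.71 to 7.29 CPM), mostly through Kit (2.93 to 4.42 CPM), while Cd34 went from 2.80 to 2.40 CPM. Mast cell and basophil markers were lower (2.89 to 4.25 CPM, against 5.585 to 9.25 CPM), through Mcpt8 (6.24 to 2.94 CPM). The part of these lists was not tested.

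Floxed cells in isotonic KCl were last set against C57BL/6J cells in conditioned medium alone, where the strain label and the isotonic salt cannot be told apart. Of the 43 genes, 2 rose and 3 fell, against 8.22% higher and 7.09% lower (15.3% in all) among the 14676 genes tested in edgeR, and the median was −0.06 (−0.01 over all genes). E2f8 had 7.07, 7.37 and 7.82 CPM, above conditioned medium (3.98, 3.87 and 3.66 CPM), with a log2 fold change of 0.95 (SE 0.16, adjusted p = 0.0013). Mki67 had 103, 108 and 95.4 CPM, against 67.7, 65.0 and 71.4 CPM (0.58, SE 0.11, adjusted p = 0.0019). Aurkb, the kinase of the chromosomal passenger complex, had 3.09, 2.71 and 3.09 CPM, against 6.38, 5.96 and 5.88 CPM (−1.03, SE 0.16, adjusted p = 0.00056). None of these 3 overlapped between the groups, and each passed under every alternative.

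Cenpf (3.21, 2.71 and 2.37 CPM, −0.62) and Plk1, a mitotic kinase (5.11, 3.46 and 3.55 CPM, −0.54), passed in edgeR with adjusted p of 0.035 and 0.0496. Both lost the call without any 1 of the conditioned medium libraries or without floxed replicate 2 or 3. Leaving out any of these 5 libraries left 1 gene lower, Aurkb, and leaving out floxed replicate 1 gave 6 higher and 9 lower. Without floxed replicate 1, 2842 of all 14646 genes tested were higher and 2745 lower, against 1206 and 1041 of 14676 with it. Scaling by total counts, which moved the median of all genes by −0.17, gave 2 higher and 6 lower. Over all 14676 genes tested it gave 651 higher and 1843 lower. Licensing genes summed to 100.1 to 121 CPM in floxed cells and 109 to 117 CPM in knockout cells, near the 105 to 113 CPM of conditioned medium alone, and 0 of the 8 passed.

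Of the other cell cycle genes 4 rose and 6 fell, with Nasp (0.69), Dbf4 (0.85), Atad2 (0.60) and Ung (1.78) higher, and Gtse1, a spindle-associated gene (−1.27), Pold2 (−0.73), Melk, a mitotic kinase (−0.80), and Ckap2, a spindle protein (−0.66), lower. Of the regulators 4 rose and 6 fell, with the kinase inhibitor Cdkn1c at 0.87, Btg1 at 0.91 and Ccnd3 at −0.68. In floxed cells dendritic markers summed to 3.61 to 6.39 CPM, which overlaps conditioned medium (1.58 to 4.37 CPM). Progenitor markers (5.71 to 7.29, against 3.51 to 4.595 CPM) and mast cell and basophil markers (5.585 to 9.25, against 4.295 to 5.002 CPM) were higher. Fibroblast markers were lower (233 to 477, against 479 to 528 CPM), although Dcn went from 62.6 to 84.3 CPM. The part of these lists was not tested.

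Some counts can hold reads of neighbours. Besides Kif20a, exons overlap a protein-coding gene on the opposite strand for Ccna2 (Exosc9, 510 bases), Ccne2 (Ints8, 609 bases), Cdc45 (Ufd1, 209 bases) and Mcm7 (Ap4m1, 321 bases, and Cops6, 64 bases), and for shorter stretches or little-counted neighbours for Cdc20, Tk1, Cdk2 and Ube2c. Processed copies were counted apart, at most 47 counts for Ccnb2-ps and 34 for Pcna-ps2 in a library.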

How the data were processed

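The authors deposited raw counts per Ensembl gene and library, which were used as they stand. The sources used here do not give the aligner, counter, build or strand setting. The submitters' processing notes list DESeq2 1.30.1 without saying for what. Symbols and exon lengths came from GENCODE on GRCm38, and promoters from RefSeq on GRCm38.p6. The 260 identifiers without a symbol held 0.0121% of counts and were kept. edgeR 4.0.16 (R 4.3.3) gave 2-sided quasi-likelihood tests on these counts (TMM factors, low-count filter by group, Benjamini-Hochberg over all genes tested, threshold 0.05). The 11 C57BL/6J libraries were fitted together, the 6 isotonic libraries alone, and all 17 for floxed against conditioned medium. Groups came from the treatment and strain labels. The script was tested on simulated data. Alternatives were a replicate block, DESeq2 1.42.0, RLE factors, total-count scaling, no or a stricter low-count filter (at least 1 CPM in 3 libraries with 20 counts on average), only the 2 groups compared, the length slope as covariate, and each library left out. Values of every library are given for the gene with the highest CPM in each role and the 3 highest and 3 lowest called fold changes per comparison. Up to 4 other cell cycle genes per direction and up to 3 regulators are named by smallest p. The members and lists were chosen with earlier results of these data known.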

Additional observations from a re-analysis of the deposited data

How the results depend on the processing

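Conditioned medium against control kept 32 to 34 lower genes and 1 higher gene when any 1 library was left out. For KCl against conditioned medium the ranges were 11 to 15 higher and 3 to 5 lower, for NaCl 5 to 8 and 0 to 1, for KCl against NaCl 2 to 11 and 0 to 6, for floxed against conditioned medium 2 to 6 and 1 to 9, and for the knockout 0 and 0. Where this left NaCl with 1 library, that library was assumed to vary like the other groups. Over all genes tested, the fits with a library left out called 3421 to 3588 higher and 3226 to 3384 lower for conditioned medium. KCl had 3299 to 4303 higher and 3511 to 4537 lower. Floxed against conditioned medium had 568 to 2842 and 497 to 2745, and the knockout 0 to 3 and 0 to 11. Without a conditioned medium library, NaCl had 1506 to 1679 higher and 1696 to 1793 lower. KCl against NaCl without a KCl library had 1551 to 3335 and 1467 to 3653.

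With total-count scaling, KCl had 13 lower genes, NaCl 3 lower and KCl against NaCl 4 higher, and floxed against conditioned medium had 6 lower. With the length term, KCl had 7 higher and 0 lower, NaCl 1 lower, KCl against NaCl 0 and 0, and the knockout 2 lower. For NaCl it called 2616 higher and 2734 lower of the 14519 genes tested. With only the groups compared, KCl had 3 lower, NaCl 2 lower, KCl against NaCl 0 and 0, and floxed against conditioned medium 1 lower. Over all genes tested, this setting called 3379 of 13018 lower for KCl and 3138 of 13378 for NaCl. For floxed against conditioned medium it called 157 of 12966 lower. Without the low-count filter, NaCl had 1 lower and floxed against conditioned medium 3 higher and 1 lower. Over all genes, 2281 of 25949 were then lower for NaCl. For floxed against conditioned medium 962 were higher and 712 lower of 26983. DESeq2 gave NaCl 1 lower and floxed against conditioned medium 5 higher and 5 lower, the latter beside 1802 higher and 1402 lower of 14676 genes. RLE factors gave 2 lower and the stricter filter 3 higher in that last comparison, where the length term gave 3 higher and 2 lower. Over all genes, RLE factors called 1006 of 14676 lower and the stricter filter 1214 of 12053 higher. The length term called 1535 higher and 1385 lower of 14676. The cause was not tested.

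Direction was compared only where the main fit or the alternative made a call, and 7 such values changed direction. In KCl against conditioned medium these were Mki67 at −0.0042 with total-count scaling and Birc5 at −0.074 with the length term. With that term, KCl against NaCl had Birc5 at −0.064, Kif20a at 0.23, Top2a at 0.15 and Ccne2 at −0.20, and floxed against conditioned medium had Birc5 at −0.43. Over the 43 genes, 6 comparisons and all alternatives, 3246 values kept their side of the threshold, 130 lost and 100 gained a call. Values called in neither fit are among the 3246 whatever their direction.

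With the replicate number as a block, counts were 1 higher and 36 lower in conditioned medium, 14 and 5 for KCl, 10 and 2 (Cdk1 and E2f1) for NaCl, 10 and 2 for KCl against NaCl, and 0 and 0 for the knockout. Over all 14519 genes tested, the block gave 4127 higher and 3996 lower in conditioned medium. It gave 3971 and 4195 for KCl, 2330 and 2382 for NaCl, and 2755 and 3056 for KCl against NaCl. Nothing in the labels says that numbers pair the libraries, and residuals of same-numbered libraries correlated above 0.1 in 4 of 15 pairs of the C57BL/6J libraries and 1 of 3 of the isotonic ones. A same-numbered library had the highest correlation in 36 of 66 comparisons of the former and 2 of 12 of the latter. For floxed against conditioned medium the block, added after seeing the data, gave 3 higher (with Pcna, 0.41) and 3 lower. Over all 14676 genes tested it gave 1231 higher and 1051 lower.

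Depth limits the least counted genes, such as Cdc6 at 10 counts in its lowest library. Each spread rests on 2 or 3 libraries a group.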
